A study of Mus musculus with 16 samples.

Results

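Akr1e1, Akr1a1, Akr1b3, Akr1b8, Akr1b10 and Akr7a5 are mouse genes of the aldo-keto reductase superfamily, and all array probe sets annotated to 1 of these symbols alone were taken as members. Of the 6 genes, 5 have at least 1 such probe set, out of 18193 genes on the array that do, and Akr1b3, which encodes mouse aldose reductase, was not analysed here. The 5 genes have 13 probe sets, of which 9 passed the filter on low values and were tested, among 23905 tested probe sets. The family was selected on the measured values of Akr1e1 in untreated SAMP8 and Control mice, so values of that comparison are given as a description.

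Aldo-keto reductases are soluble enzymes that use NADPH to reduce aldehydes and ketones to alcohols. Akr1e1 reduces 1,5-anhydro-D-fructose, a sugar formed from glycogen, and Akr1a1 is the aldehyde reductase that turns glucuronate into gulonate on the route to ascorbate, which mice can make. Aldose reductase starts the polyol pathway from glucose to sorbitol, and Akr1b8 and Akr1b10 are its close relatives that reduce other carbonyl compounds. Akr7a5 reduces succinic semialdehyde, a breakdown product of the transmitter GABA, and dialdehydes formed from aflatoxin.

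Hippocampal RNA from 16 male mice aged 12 months was measured on 16 Affymetrix arrays, with RNA of 1 mouse on each and 4 mice in each of 4 groups. AβPP antisense and Random antisense mice were of the senescence-accelerated SAMP8 line and received an oligonucleotide by the intravenous route, directed at the amyloid beta precursor protein (AβPP) or of random sequence. SAMP8 mice were untreated, and untreated Control mice came from a 50% backcross of SAMP8 with the CD-1 stock, so Control mice also carry SAMP8 genome and differ from the 2 oligonucleotide groups in line and treatment together. Per the labels, SAMP8 mice have memory deficits at this age and Control mice do not. The treatment label of Random antisense 1 says that it was untreated, against its title and description, and the array was kept with Random antisense. The design asks which genes differ between the lines and which the AβPP antisense changes.

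All values are log2 signals as deposited, and levels of different probe sets are not set against each other. All 12 hippocampal neuron markers on a list of such genes were tested, and their mean level lay between 7.28 and 9.30 on the 16 arrays. Some arrays stand apart. AβPP antisense 4 had a beta-actin signal 3.89 log2 higher at the 3′ than at the 5′ end of the transcript, against 0.84 to 1.60 on the other 15 arrays, and a median correlation of 0.905 with the other arrays. Control 4 had a mean of 12.73 over 8 leukocyte markers, against 5.85 to 7.99 elsewhere, and a median correlation of 0.922. AβPP antisense 2 had the lowest neuron marker mean, 7.28, and the highest mean over 3 blood markers, 9.47.

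The sequences before the annotated starts of Akr1e1 and Akr1b10, the 2 genes the results turn on, are shown first, as the reference sequence at the start of each gene. Each is the 250 bases upstream of the start, from RefSeq on GRCm38.p6, with every CG dinucleotide in capitals. Akr1e1 is on the minus strand at chr13:4609165-4609414 and Akr1b10 on the plus strand at chr6:34383997-34384246.
Akr1e1: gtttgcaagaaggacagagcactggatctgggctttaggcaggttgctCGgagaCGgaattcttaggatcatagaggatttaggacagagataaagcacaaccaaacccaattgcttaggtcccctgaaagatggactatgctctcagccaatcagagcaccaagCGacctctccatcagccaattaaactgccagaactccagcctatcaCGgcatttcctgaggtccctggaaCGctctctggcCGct
Akr1b10: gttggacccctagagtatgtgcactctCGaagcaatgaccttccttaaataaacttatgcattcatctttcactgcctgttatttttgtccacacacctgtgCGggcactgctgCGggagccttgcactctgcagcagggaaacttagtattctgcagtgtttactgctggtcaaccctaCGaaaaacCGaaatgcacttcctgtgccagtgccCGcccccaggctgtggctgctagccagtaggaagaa
Both windows hold 6 CG dinucleotides and are 50.8% G or C, against a median of 6 CG dinucleotides and 52% G or C over 27025 mouse promoters of this length. Akr7a5 has the most CG-rich of the 5 windows, with 21 CG dinucleotides and 68.8% G or C, and 83.9% of promoters have fewer. Akr1a1 has 7 CG dinucleotides and Akr1b8 has 9. The letters TGACNNNGC, the core of the antioxidant response element, were absent from both strands of all 5 windows and present in 10.2% of all promoters. TGANTCA, the AP-1 site, was also absent from the 5 windows and present in 6.87% of all. TATAAA was found once, before Akr1b8, and in 13.0% of all promoters. The first 2 motifs can share letters where they start alike, and TATAAA overlaps with neither. These matches describe the reference sequence alone, since the sequences of the SAMP8 and CD-1 animals were not analysed here.

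The Akr1e1 signal was lower in all 3 groups of SAMP8 mice than in Control mice, and neither oligonucleotide was accompanied by a called change in its level. Its tested probe set, 1417826_at, read 5.54, 5.51, 5.58 and 5.61 in the 4 AβPP antisense mice. It read 5.01, 5.52, 5.52 and 5.53 in Random antisense mice, 5.54, 5.61, 5.56 and 5.56 in untreated SAMP8 mice, and 7.58, 7.09, 7.18 and 7.20 in Control mice. Every one of the 12 SAMP8 arrays lay below every Control array, with no overlap, and Random antisense 1 was the lowest of all. Over all tested probe sets, 1.42% had the 8 oligonucleotide arrays all below the 4 Control arrays. For the 4 untreated SAMP8 arrays the share was 1.59%. The gene was chosen on the untreated arrays, so this separation is a description.

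**Figure D1:**
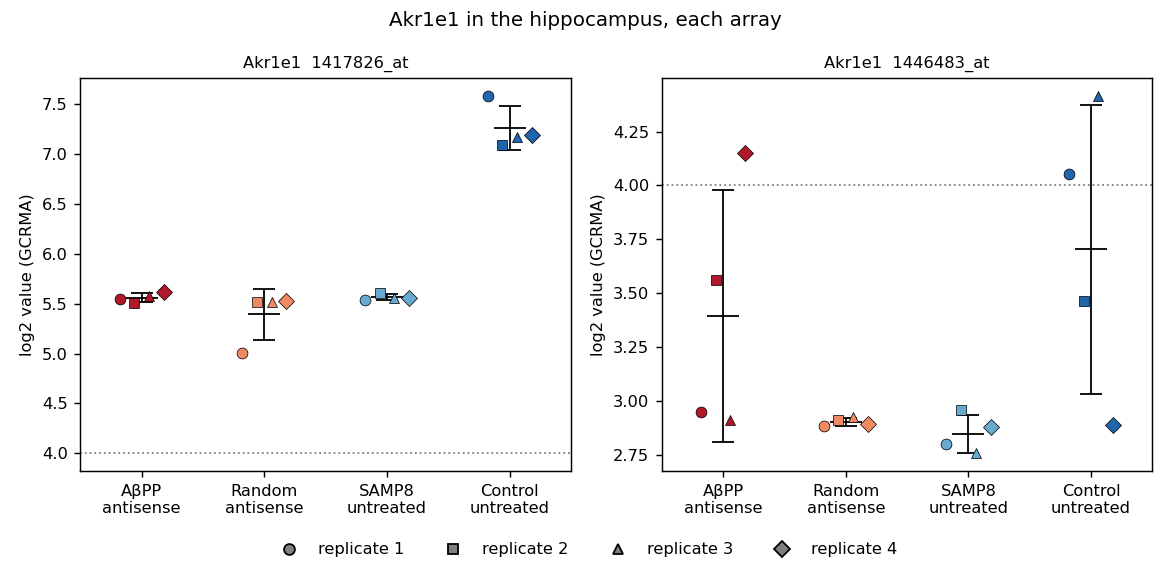
Log2 signal of the 2 Akr1e1 probe sets on each of the 16 arrays (y axis) by group (x axis). Points are arrays, with a shape for each replicate number, bars are the mean and SD of 4 arrays, and the dotted line is the filter level of 4 log2. For the tested probe set the 12 SAMP8 arrays sit between 5.01 and 5.61 and the 4 Control arrays between 7.09 and 7.58.

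The group means were 5.56 ± 0.05 in AβPP antisense, 5.39 ± 0.26 in Random antisense, 5.57 ± 0.03 in untreated SAMP8 and 7.26 ± 0.22 in Control mice (SD, n = 4 each). In order of level, Random antisense, AβPP antisense and untreated SAMP8 came first, within 0.17 log2 of each other, and Control lay above all of them. AβPP antisense overlapped with both other SAMP8 groups. The 4 Random antisense arrays all lay below the 4 untreated SAMP8 arrays, as for 4.2% of all tested probe sets, with Random antisense 4 at 5.53 and SAMP8 1 at 5.54 nearest to each other.

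Between untreated lines, the pair of groups that chose the gene, Akr1e1 differed by -1.70 log2 in SAMP8 minus Control (95% interval -1.98 to -1.41), which is 3.24-fold lower in SAMP8. Of the 9 tested member probe sets, this 1 was called in that comparison, where 0.36% of all tested probe sets were called at an adjusted p under 0.05, and nothing is read from that count.

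The 2 oligonucleotide groups hold mice that did not enter the choice of the gene, but both are set against the 4 Control arrays on which it was chosen, so their differences from Control are also given with no test. AβPP antisense minus Control was -1.70 ± 0.13 (SE; 95% interval -1.98 to -1.41) and Random antisense minus Control was -1.87 ± 0.13 (SE; 95% interval -2.15 to -1.58). These are 3.25-fold and 3.65-fold lower signals. Akr1e1 was the only member called lower in these comparisons, where 1.91% of all tested probe sets were called lower in AβPP antisense minus Control and 0.205% in Random antisense minus Control, and nothing is read from that count. The signal of 1 probe set stands for the gene here. Whether the SAMP8 and CD-1 genomes match its probes was not tested, so the differences between lines are differences in signal. In whole tissue, fewer cells of a type and less RNA per cell cannot be told apart.

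Within the SAMP8 line, Akr1e1 did not pass the limma test in any comparison. The untreated SAMP8 arrays also entered the choice of the gene. The comparisons with them are therefore given as a description, and nothing is read from their p-values. AβPP antisense minus Random antisense was 0.17 ± 0.13 (SE; 95% interval -0.12 to 0.45; limma, adjusted p = 0.642; exact permutation p = 0.114). AβPP antisense minus untreated SAMP8 was -0.002, with a 95% interval of -0.29 to 0.28 and an adjusted p of 0.997 in limma. Random antisense minus untreated SAMP8 was -0.17 (95% interval -0.46 to 0.11; limma, adjusted p = 1; exact permutation p = 0.0286, the smallest that 4 against 4 arrays allow). Every one of these intervals includes 0, and their outermost bounds are -0.46 and 0.45 log2. Without Random antisense 1, the last difference was -0.04 and AβPP antisense minus Random antisense was 0.04, both on the log2 scale.

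The spread of the Akr1e1 signal between mice was small in AβPP antisense and untreated SAMP8. Among tested probe sets whose group mean lay within 0.5 log2 of that of Akr1e1, 2.05% of 2681 had a smaller SD in AβPP antisense mice, where the median SD of these probe sets was 0.479. In untreated SAMP8 mice 3.50% of 2629 had a smaller SD, and in Control mice 29.2% of 3636 did. The gene was chosen on the arrays of these 2 groups, so nothing is read from their shares. In Random antisense mice 75.4% of 2542 had a smaller SD, with the array of 5.01 setting the spread. The 2 arrays that stood apart in RNA quality or neuron markers in the AβPP antisense group, numbers 4 and 2, read 5.61 and 5.51 for Akr1e1, and Control 4 read 7.20. Leaving out Control 4 and AβPP antisense 4 together gave -1.74 for AβPP antisense minus Control, -1.89 for Random antisense minus Control and -1.72 for SAMP8 minus Control.

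A second Akr1e1 probe set, 1446483_at, was over 4 log2 on 3 arrays and was not tested. It read 2.95, 3.56, 2.91 and 4.15 in AβPP antisense mice, 2.88, 2.91, 2.92 and 2.89 in Random antisense mice, 2.80, 2.96, 2.76 and 2.88 in untreated SAMP8 mice, and 4.05, 3.46, 4.41 and 2.89 in Control mice. Here 3 of 4 Control arrays lay above all Random antisense and untreated SAMP8 arrays, while AβPP antisense and Control overlapped. Most of these signals lay below the filter level and are too low to compare, so this order is not read as a result.

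The genes whose level followed Akr1e1 most closely over the 16 arrays were Gnb1, Zfp551, Kcnq5, Apod and Tekt5, with Pearson correlations of 0.97, 0.96, 0.95, 0.95 and 0.95. These correlations are across arrays that fall into 2 separate sets by line, so they mainly restate a shared line difference and carry no test. Gnb1, a G protein beta subunit, averaged 9.79 in AβPP antisense, 9.68 in Random antisense, 9.57 in untreated SAMP8 and 11.86 in Control mice. Apod, a secreted lipid carrier, averaged 1.90, 1.94, 1.89 and 6.58 in the same order of groups. Kcnq5, a potassium channel subunit, averaged 3.29, 2.90, 2.84 and 7.87. The chosen probe sets of all 5 genes were thus low in the 3 SAMP8 groups and high in Control mice, as Akr1e1 was. Each gene stands here by its probe set of most extreme correlation, which need not be its brightest. Those of Zfp551, Apod and Tekt5 lay below 4 log2 on every array of the SAMP8 groups. They passed the filter only through Control mice, so their low values are not read as levels of the genes. Kcnq5 was over 4 log2 in the SAMP8 groups only in AβPP antisense, at most 4.76. The 3 genes of most opposite pattern were Timm9, Noc2l and Galc, with correlations of -0.97, -0.94 and -0.93. Timm9 and Noc2l lay below 4 log2 on every Control array and passed the filter only through the SAMP8 groups. Galc, the lysosomal galactosylceramidase, averaged 8.42 in AβPP antisense, 8.51 in Random antisense, 8.57 in untreated SAMP8 and 3.92 in Control mice. Its Control arrays ran between 2.28 and 6.59 with a mean below 4 log2, so that mean is not read as a level of the gene.

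No gene measured beside Akr1e1 on chromosome 13 was called lower in any comparison with Control. Over all tested probe sets, 0.18% were called lower in SAMP8 minus Control and 0.205% in Random antisense minus Control. In AβPP antisense minus Control 1.91% were. At such shares 14 genes are too few to read a result from. The neighbours taken were the nearest genes with a tested probe set in the order of the mouse gene table, up to 10 on each side, passing over genes without one. They were 14, the 4 found before it and 10 after it. None of the 14 was called in SAMP8 minus Control, where their differences ran between -0.08 and 1.19 log2 with a median of 0.03, and none was called in Random antisense minus Control. In AβPP antisense minus Control 1 of the 14 was called, Zmynd11, a chromatin reader, at 0.45 (limma, adjusted p = 0.0325), where 3.24% of all tested probe sets were called.

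**Figure D2:**
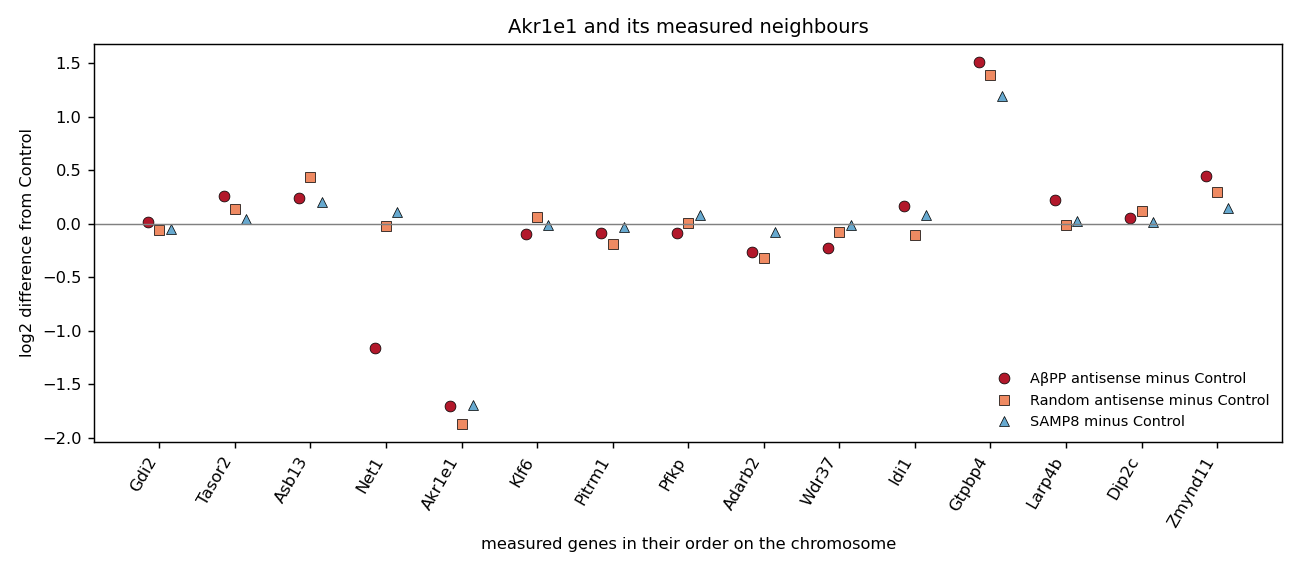
Log2 difference (y axis) of AβPP antisense, Random antisense and untreated SAMP8 minus Control for Akr1e1 and its 14 measured neighbours on chromosome 13, in gene order (x axis). Akr1e1 lies between -1.87 and -1.70 in the 3 comparisons, and the median of its neighbours in untreated SAMP8 minus Control is 0.03.

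The nearest measured genes on either side were Net1, an exchange factor for the GTPase RhoA, and Klf6, a zinc finger transcription factor. Klf6 differed by -0.09 in AβPP antisense, 0.06 in Random antisense and -0.01 in untreated SAMP8, each minus Control. Net1 differed by -1.16 in AβPP antisense minus Control (limma, adjusted p = 0.202), with 5.26 and 3.99 on AβPP antisense 2 and 4 and between 6.42 and 7.77 on all other arrays. Gtpbp4, which encodes a GTPase of ribosome assembly, was the neighbour furthest above Control, at 1.51 in AβPP antisense, 1.39 in Random antisense and 1.19 in untreated SAMP8, none called. Control 4, the array with high leukocyte markers, read 6.23 for Gtpbp4, and the other Control arrays read 8.56, 9.29 and 9.56, so 1 array sets much of that difference.

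Akr1b10 was called higher in AβPP antisense mice than in Control mice on 1 probe set, a call lost in 17 of 27 alternative fits. Line and treatment differ together in that comparison. Akr1b10 lay above the other SAMP8 groups without passing the test. Probe set 1453173_at read 8.08, 7.88, 7.79 and 7.80 in AβPP antisense mice and 7.48, 7.43, 7.47 and 7.47 in Random antisense mice. It read 7.49, 7.48, 7.70 and 7.62 in untreated SAMP8 mice and 7.62, 7.48, 7.37 and 7.10 in Control mice. The 4 AβPP antisense arrays lay above all 12 others, and the other 3 groups overlapped. Over all tested probe sets, 3.69% had the 4 AβPP antisense arrays all above the 4 Control arrays. The share above all 12 others was not computed.

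**Figure D3:**
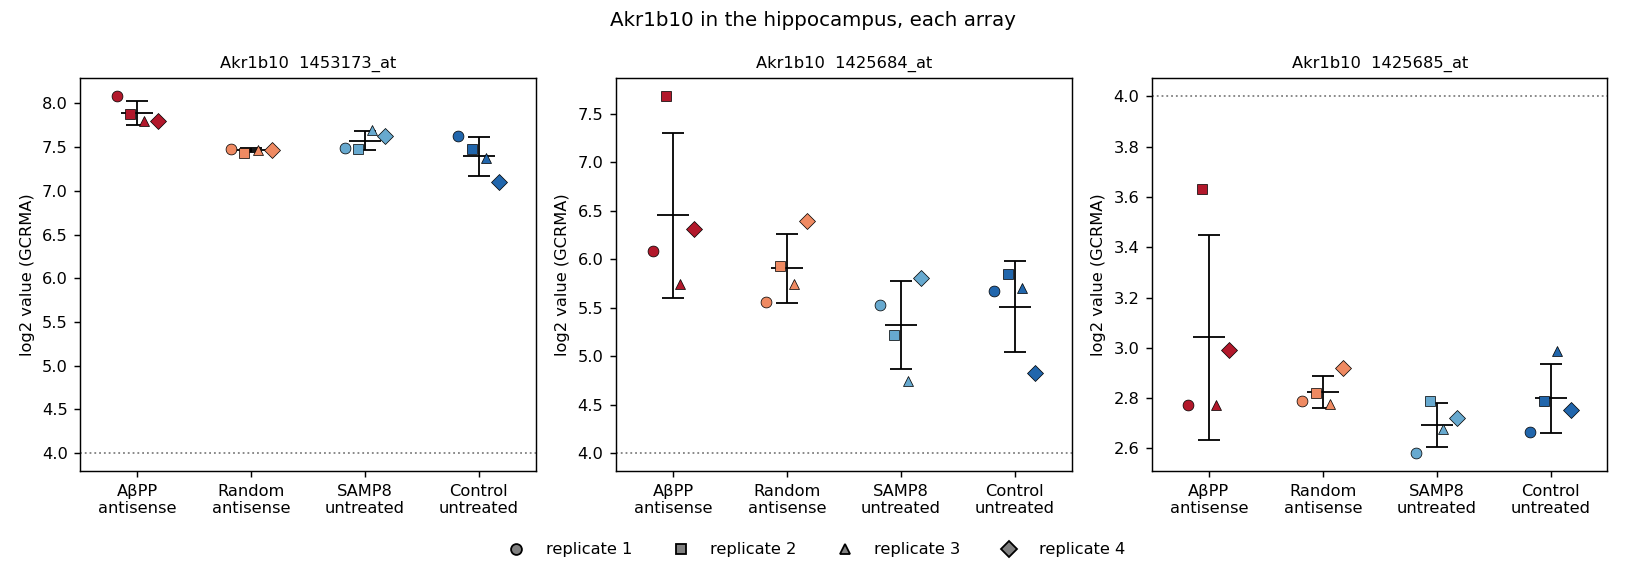
Log2 signal of the Akr1b10 probe sets on each of the 16 arrays (y axis) by group (x axis), with points, bars and dotted line for arrays, mean with SD of 4 arrays, and the filter level of 4 log2. On 1453173_at the AβPP antisense arrays sit between 7.79 and 8.08 and all others between 7.10 and 7.70.

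The means on 1453173_at were 7.89 ± 0.13 in AβPP antisense, 7.46 ± 0.02 in Random antisense, 7.57 ± 0.11 in untreated SAMP8 and 7.39 ± 0.22 in Control mice (SD, n = 4 each). AβPP antisense minus Control was 0.49 (95% interval 0.24 to 0.74; limma, adjusted p = 0.0382), a comparison in which 1.33% of all tested probe sets were called higher. This call was lost when any 1 of 13 of the 16 arrays was left out, namely AβPP antisense 1 or 2, each of the Random antisense and untreated SAMP8 arrays, or Control 2, 3 or 4, with adjusted p values up to 0.0677. It was also lost with the replicate number as a block (adjusted p = 0.0611) and when only the 8 arrays compared were fitted (adjusted p = 0.486), while the difference stayed at 0.49 in both.

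The comparison with Random antisense sets 2 oligonucleotides against each other within 1 line. AβPP antisense minus Random antisense was 0.42 ± 0.12 on 1453173_at (SE; 95% interval 0.17 to 0.68; limma, adjusted p = 0.198), with all 4 AβPP antisense arrays above, as for 3.87% of all. None of the 9 member probe sets was called there, where 0.0837% of all were, and 1 had an unadjusted p under 0.05, this one, as did 12.3% of all. With Control 4 and AβPP antisense 4 left out together, the difference was 0.45 and passed the test (limma, adjusted p = 0.0450). This was the only 1 of 27 alternative fits in which it passed, and the adjusted p in limma reached 0.535. Without AβPP antisense 4 alone the difference was also 0.45 and did not pass (limma, adjusted p = 0.18). Control 4 is not among the arrays compared here and bears on this test only through the fit over all arrays. Against untreated SAMP8 the difference was 0.31 (95% interval 0.06 to 0.57; limma, adjusted p = 0.243), again with all 4 AβPP antisense arrays above, as for 3.55% of all.

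The other tested Akr1b10 probe set, 1425684_at, read 6.09, 7.68, 5.74 and 6.31 in AβPP antisense mice and 5.56, 5.93, 5.75 and 6.39 in Random antisense mice. It read 5.52, 5.22, 4.75 and 5.81 in untreated SAMP8 mice and 5.67, 5.85, 5.71 and 4.82 in Control mice. AβPP antisense overlapped with each of the other groups here, and AβPP antisense 2 was the highest array. The difference was 0.55 ± 0.37 in AβPP antisense minus Random antisense (SE; 95% interval -0.24 to 1.34; limma, adjusted p = 0.579), 1.13 in AβPP antisense minus untreated SAMP8 (adjusted p = 0.190) and 0.94 in AβPP antisense minus Control (adjusted p = 0.149). Without AβPP antisense 2 these differences were 0.14, 0.72 and 0.53, so that array carries much of their size. The correlation of the 2 probe sets over the 16 arrays was 0.51. The remaining one, 1425685_at, lay between 2.58 and 3.63 and was not tested.

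Mean levels of marker lists for other cell types are set beside these values. The mean of 9 tested choroid plexus markers, of 12 listed, was 5.29 to 6.87 in AβPP antisense, 7.39 to 8.63 in Random antisense, 7.93 to 9.02 in untreated SAMP8 and 7.31 to 8.34 in Control mice, with no overlap between AβPP antisense and the rest. The mean of 7 endothelial and mural markers, of 10 listed, was 7.97 to 8.89 in AβPP antisense and 7.65 to 8.04 in Random antisense mice. The mean of 8 leukocyte markers, of 12 listed, was 6.41 to 7.99 in AβPP antisense and 5.85 to 6.49 in Random antisense mice. Both of these ranges overlap between the groups. The mean of 8 thalamus markers, of 9 listed, was 6.99 to 9.77 in AβPP antisense, 8.55 to 9.28 in Random antisense, 9.40 to 9.58 in untreated SAMP8 and 9.01 to 9.92 in Control mice. All 8 thalamus markers had negative differences in AβPP antisense minus Random antisense, with a median of -0.57, in AβPP antisense minus Control, with a median of -1.32, and in Random antisense minus Control, with a median of -0.59. The part of these cell types in the Akr1b10 and Akr1e1 values was not tested. Around Akr1b10 on chromosome 6, the 20 nearest genes with a tested probe set were taken in the same way, and 1 was called in AβPP antisense minus Control, Copg2, a vesicle coat subunit, at -0.84 (limma, adjusted p = 0.0251). Over all tested probe sets 3.24% were called there, and nothing is read from that count. Copg2 read 8.96 and 8.47 on AβPP antisense 2 and 4, which stood apart, and 9.31 and 9.56 on AβPP antisense 1 and 3. Control arrays read 9.81 to 10.06.

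Akr1a1 was close to even across the 4 groups, and none of its 4 probe sets passed the test in the comparisons of AβPP antisense or Random antisense with another group. On the brightest, 1430123_a_at, the arrays read 14.25, 14.10, 14.17 and 14.20 in AβPP antisense mice and 14.16, 14.20, 14.23 and 14.25 in Random antisense mice. They read 14.29, 14.30, 14.32 and 14.26 in untreated SAMP8 mice and 14.30, 14.35, 14.32 and 14.27 in Control mice. Both oligonucleotide groups lay below both untreated groups on this probe set with no overlap, and the 2 oligonucleotide groups overlapped with each other. Against Control, 3.69% of all tested probe sets had their 4 AβPP antisense arrays all below and 4.64% had their 4 Random antisense arrays all below.

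The 4 Akr1a1 probe sets differed by -0.03 to -0.15 log2 in AβPP antisense minus Random antisense (limma, adjusted p = 0.603 to 0.903) and by -0.11 to -0.29 in AβPP antisense minus untreated SAMP8 (adjusted p = 0.287 to 0.620). Against untreated SAMP8, the 4 AβPP antisense arrays lay below the 4 SAMP8 arrays on 3 of the 4 probe sets, a pattern seen in 4.41% of all tested probe sets. None of the 9 member probe sets was called there, where 0.289% of all were. AβPP antisense minus Control lay between -0.13 and -0.31 (limma, adjusted p = 0.140 to 0.329), with the lowest signal on 3 of the 4 probe sets in AβPP antisense 4, the array with the largest 3′ to 5′ imbalance. Random antisense minus untreated SAMP8 was -0.08 on the brightest probe set, with the 4 Random antisense arrays all below, as for 4.2% of all tested probe sets. No probe set of any gene was called in Random antisense minus untreated SAMP8 by limma, and 267 of 23905 (1.12%) had an unadjusted p under 0.05 there, none of them a member. Without AβPP antisense 4, the differences on the 4 probe sets were -0.002 to -0.06 in AβPP antisense minus Random antisense and -0.02 to -0.19 in AβPP antisense minus untreated SAMP8. The probe sets of Akr1a1 correlated with each other over the 16 arrays at 0.30 to 0.91.

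**Figure D4:**
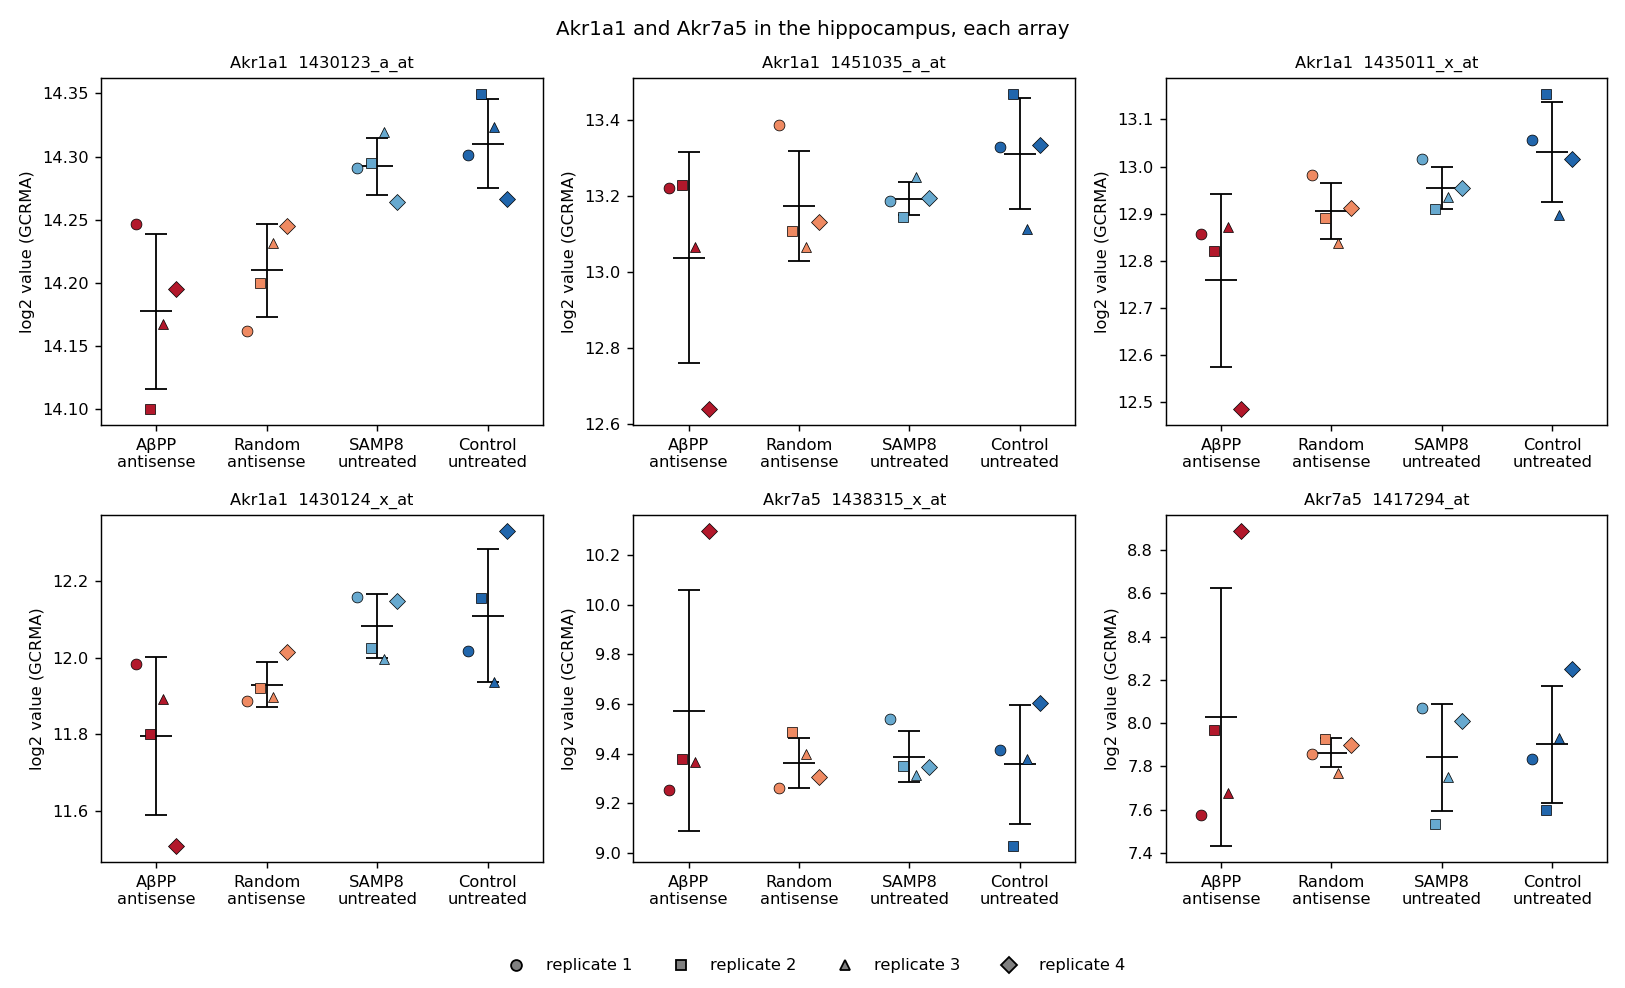
Log2 signal of the tested Akr1a1 and Akr7a5 probe sets on each of the 16 arrays (y axis) by group (x axis), with points for arrays and bars for the mean and SD of 4 arrays. AβPP antisense 4 is the highest array on both Akr7a5 probe sets, at 10.30 and 8.89.

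Akr7a5 did not pass the test in any comparison of an oligonucleotide group. Probe set 1438315_x_at read 9.25, 9.38, 9.36 and 10.30 in AβPP antisense mice and 9.26, 9.49, 9.40 and 9.31 in Random antisense mice. It read 9.54, 9.35, 9.31 and 9.35 in untreated SAMP8 mice and 9.41, 9.03, 9.38 and 9.61 in Control mice. All groups overlapped, and AβPP antisense 4 stood above every other array. The same array was also highest on 1417294_at, with 8.89 against 7.53 to 8.25 on the other 15. AβPP antisense minus Random antisense was 0.21 and 0.16 on the 2 probe sets (limma, adjusted p = 0.703 and 0.822), with 95% intervals that include 0. Without AβPP antisense 4 the differences were -0.03 and -0.12, of the opposite sign. The 2 probe sets correlated at 0.91 over 16 arrays and at 0.71 without AβPP antisense 4. The remaining probe set, 1458300_at, lay between 2.70 and 3.35 and was not tested.

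Akr1b8 was at a low level everywhere: its only probe set, 1448894_at, lay between 2.53 and 2.96 on the 16 arrays, below the filter on each, and was not tested. The nearest tested genes of Akr1a1 and of Akr7a5 on chromosome 4, 20 for each, held no called gene in any of the 6 comparisons of groups. Of all tested probe sets 3.24% were called in AβPP antisense minus Control and fewer in the others, so nothing is read from that count. The genes whose level was most like that of Akr1a1 over the 16 arrays were Etfrf1, Churc1 and Mrpl27 (Pearson r of 0.86, 0.81 and 0.81). Those most like Akr1b10 were Btf3l4, Cox8a and Slc15a2 (0.92, 0.91 and 0.90), and those most like Akr7a5 were Taf1c, Rbm14 and Alkbh4 (0.96, 0.96 and 0.93). These arrays share the outlying AβPP antisense libraries, and the correlations carry no test.

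**Figure D5:**
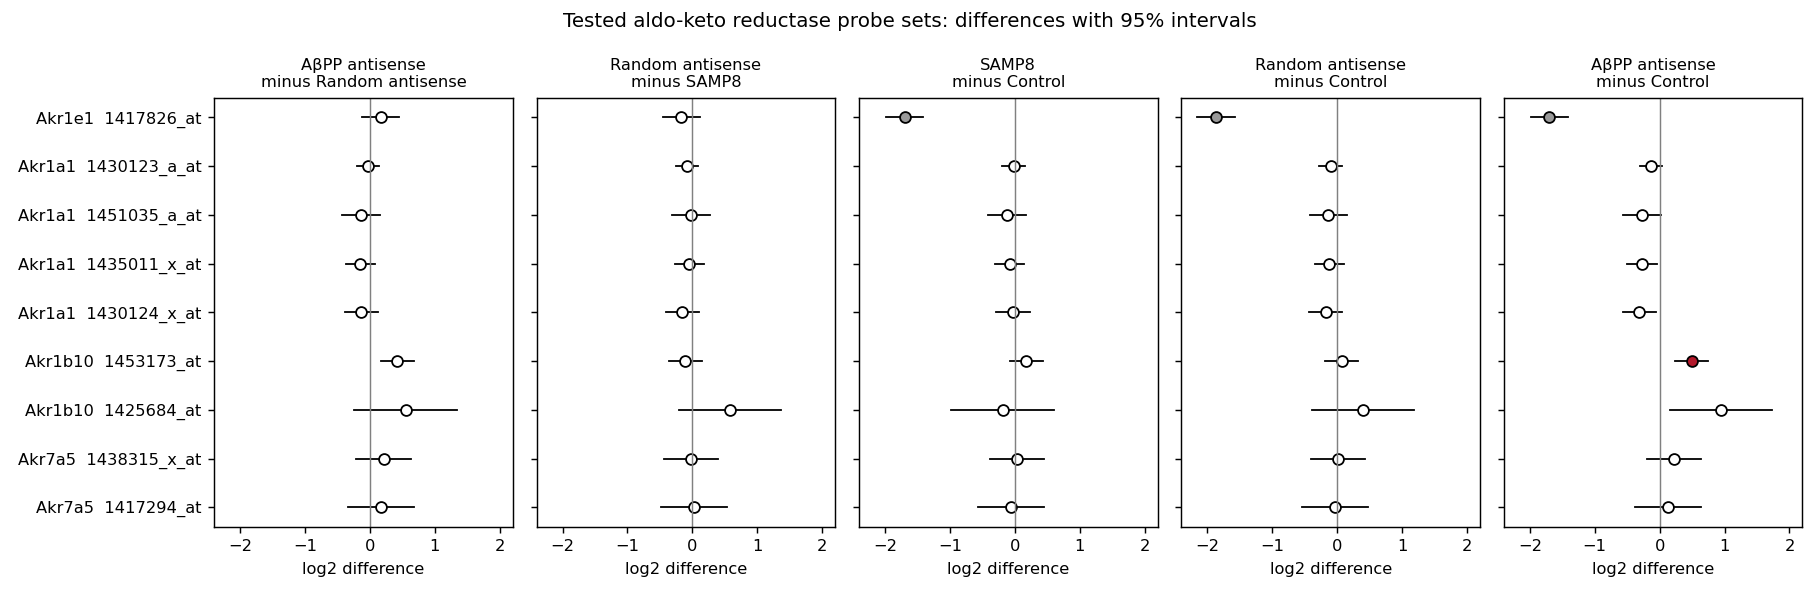
Log2 difference with its 95% interval (x axis) of the 9 tested member probe sets (y axis) in 5 comparisons of groups, 1 panel each. Filled red points passed the test (adjusted p under 0.05), open points did not, and grey points are Akr1e1 against the Control arrays on which it was chosen, for which no test is given. Against Control, Akr1e1 lies at -1.70 in AβPP antisense and -1.87 in Random antisense, and all other members lie nearer to 0 than 1 log2.

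Over the 9 tested member probe sets, the median difference was 0.16 in AβPP antisense minus Random antisense, against 0.01 over all tested probe sets. Without AβPP antisense 4 this median was -0.03, so its sign rests on that array. The median was -0.13 in AβPP antisense minus Control, against 0.03 over all, and -0.10 in Random antisense minus Control, against 0.02 over all. In AβPP antisense minus Control 2 of 9 were called, Akr1e1 lower and Akr1b10 higher, where 3.24% of all were called. In Random antisense minus Control 1 of 9 was called, Akr1e1, where 0.418% of all were. Both counts include Akr1e1, which was chosen on these Control arrays, so nothing is read from them.

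Other aldo-keto reductases of the mouse were mostly at low levels in this tissue. Of 15 further genes listed, 13 had a probe set and 3 were tested, Kcnab1, Kcnab2 and Kcnab3, the potassium channel beta subunits that share the reductase fold. The 14 untested probe sets of the other 10 genes, hydroxysteroid dehydrogenases of the Akr1c group and their relatives Akr1cl and Akr1d1, lay between 1.72 and 4.54 and were over 4 log2 on at most 3 arrays. None of the 3 beta subunit genes was called in any comparison on its brightest probe set. On that probe set Kcnab3 read 6.63, 6.78, 5.62 and 7.10 in AβPP antisense mice and 7.51, 7.25, 7.27 and 7.43 in Random antisense mice. All 4 AβPP antisense arrays were lower, as for 3.71% of all tested probe sets, at -0.83 log2 (limma, adjusted p = 0.285). A dimmer Kcnab3 probe set was called lower in AβPP antisense minus Control, with means of 4.85 in AβPP antisense and 6.74 in Control mice (difference -1.89, limma, adjusted p = 0.0328), against -0.39 on the brightest (adjusted p = 0.420).

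Genes that supply or use the substrates of these enzymes were set beside all tested probe sets. Over 8 lists with 132 genes, of which 91 were tested with 1 probe set each and which include the beta subunits, 1 gene was higher and 0 were lower in AβPP antisense minus Random antisense, with 9 at an unadjusted p under 0.05, where 12.3% of all tested probe sets had one. In AβPP antisense minus Control 2 were higher and 0 lower, with 13 at an unadjusted p under 0.05, where 23.7% of all had one. In SAMP8 minus Control none was called by limma, and 5 had an unadjusted p under 0.05, where 4.38% of all had one. The shares of all tested probe sets called in these 3 comparisons were 0.0837%, 3.24% and 0.36%, in the same order. At such shares 91 genes are too few, and nothing is read from the called counts. The gene called in AβPP antisense minus Random antisense was Slc2a5, and its call is not read as a result.

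On the list for the polyol pathway and fructose use, 1 of 6 tested genes was called, Slc2a5, the fructose transporter that microglia express in brain. It read 5.27, 4.48, 4.85 and 5.05 in AβPP antisense mice, 3.96, 3.83, 3.71 and 4.09 in Random antisense mice, 4.12, 3.97, 3.90 and 3.89 in untreated SAMP8 mice, and 3.74, 3.51, 3.80 and 3.49 in Control mice. All 4 AβPP antisense arrays were above the other 12, a pattern whose share over all tested probe sets was not computed. Slc2a5 was over 4 log2 on 4 AβPP antisense arrays and on 2 of the 12 others. It thus passed the filter only through the group where it is high, and its call is not read as a result. The mean of 8 microglia markers, of 9 listed, was 8.31 to 9.30 in AβPP antisense and 8.48 to 8.87 in Random antisense mice, which overlap.

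Glycogen is the source of the Akr1e1 substrate, and 16 genes on the list of glycogen and anhydrofructose enzymes were tested. Of these 1 was called, in AβPP antisense minus Control, where 3.24% of all tested probe sets were called, and nothing is read from that count. Ppp1r3c, a subunit that targets protein phosphatase to glycogen, averaged 11.62 ± 0.14 in AβPP antisense and 11.20 ± 0.17 in Control mice (SD, n = 4 each; difference 0.43, limma, adjusted p = 0.0491). This call is close to the threshold and was not recomputed with arrays left out. In AβPP antisense minus Random antisense 13 of the 16 differences were positive, with a median of 0.06, against 0.01 over all tested probe sets. This count and median were not recomputed without AβPP antisense 4, and nothing is read from them. In SAMP8 minus Control 8 of 16 were positive, with a median of 0.03, and none was called.

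No gene was called on its brightest probe set in any of the 6 comparisons on the other 5 lists. Dimmer probe sets of 2 of their genes were called lower in AβPP antisense minus Control, where 1.91% of all tested probe sets were. These were Hsd17b11, a steroid dehydrogenase, at -1.19 (limma, adjusted p = 0.0283) and Srxn1, which restores oxidised peroxiredoxins, at -0.65 (adjusted p = 0.0302), against 0.05 and -0.20 on their brightest probe sets. Glucuronate and pentose reduction, the pathway of Akr1a1, had 7 tested genes, and the largest differences in AβPP antisense minus Random antisense were 0.67 for Gusb, the lysosomal glucuronidase (limma, adjusted p = 0.541), and 0.54 for Dcxr, which reduces xylulose (adjusted p = 0.243). GABA and succinic semialdehyde, the pathway of Akr7a5, had 8 tested genes with a median of -0.03 in AβPP antisense minus Random antisense. Carbonyl and aldehyde removal had 25 tested genes, of which 20 had positive differences in AβPP antisense minus Random antisense, with a median of 0.14. The largest there were -0.84 for Aldh1a2, a retinaldehyde dehydrogenase (limma, adjusted p = 0.337), and 0.56 for Dhrs4, a carbonyl reductase (adjusted p = 0.289). Glo1, which detoxifies methylglyoxal, averaged 13.18 ± 0.09 in untreated SAMP8 and 12.56 ± 0.59 in Control mice (SD, n = 4 each; difference 0.63, limma, adjusted p = 0.692). Nrf2 and its targets, a set that in other tissues includes aldo-keto reductases, had 17 tested genes, 13 with positive differences and a median of 0.13 in AβPP antisense minus Random antisense. The largest there were -0.98 for Gsr, glutathione reductase (limma, adjusted p = 0.481), and -0.43 for Slc7a11, the cystine importer (adjusted p = 0.421). Neurosteroid enzymes had 9 tested genes, with a median of 0.17 there. Of the 8 lists, 6 had a median above that of all tested probe sets, 0.01, in AβPP antisense minus Random antisense, and the GABA list and the beta subunits had a median below it. The list medians and counts of positive differences were not recomputed without AβPP antisense 4, and nothing is read from them.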

How the data were processed

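The submitters' processing notes name GCRMA, which corrects background, normalizes by quantiles and summarises each probe set, as the source of the log2 signals the authors deposited, without a version. Per the labels, 4 µg of hippocampal total RNA from 1 animal went into each array's labelled cRNA, so the p-values measure the spread between mice. Removing 64 Affymetrix controls left 45037 of 45101 probe sets, of which 34945 have 1 gene symbol, 932 several and 9160 none in GEO's platform annotation. A probe set was tested where its signal was over 4 log2 on at least 4 arrays (23905 tested, 21132 not).

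A one-way limma fit over all 16 arrays (12 residual degrees of freedom) gave every contrast, and p-values were adjusted over all tested probe sets by Benjamini-Hochberg, with 0.05 as threshold. Two-sided exact permutation p-values used all 70 splits of 8 arrays, are given for Akr1e1 within the SAMP8 line and were not adjusted for their number. The members and the gene lists were chosen with earlier results of these data known. Members are all probe sets of the named symbols, neighbours are the nearest genes with a tested probe set, up to 10 on each side, and likeness names the 5 genes of highest and 3 of lowest correlation for Akr1e1 and 3 of highest for other genes. A list gene or neighbour is represented by its brightest tested probe set, and the text names called genes and, for some lists, those of largest difference; probe sets standing apart elsewhere were named after their values were seen. Marker scores are mean log2 signals.

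Alternatives covered the filter, normalization, array weights, the replicate block and left-out arrays, and the number of arrays limits the precision. GRCm38.p6 was used for gene names, gene order and promoters, since no build is given for the arrays. The script was tested on simulated data. Software versions were limma 3.58.1 in R 4.3.3, and pandas 2.3.3 and matplotlib 3.10.9 in Python 3.11.15.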

Additional observations from a re-analysis of the deposited data

Results flagged for a closer look

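In groups of 4 arrays, a single array was set against the other 3 by its gap to the nearest of them as a share of the group's range. Of 36 groups tested for the member probe sets, 5 had such an array, and chance gives about 1 in 20. For Akr1e1 (1417826_at), Random antisense 1 was lowest at 5.01, with the nearest at 5.52. This is the array whose treatment label says untreated, and it also lay below all 4 untreated SAMP8 arrays. For Akr1a1 (1435011_x_at), AβPP antisense 4 was lowest at 12.49, with the nearest at 12.82. For Akr7a5 (1438315_x_at), the same array was highest at 10.3, with the nearest at 9.38, and its beta-actin signal was 3.89 log2 higher at the 3′ than at the 5′ end, whose part in these values was not tested. For Akr7a5 (1438315_x_at), SAMP8 1 was highest at 9.54, with the nearest at 9.35. For Akr1b10 (1425684_at), Control 4, the array with leukocyte markers at 12.73, was lowest at 4.82, with the nearest at 5.67.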

How the results depend on the processing

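Each of 60 values and counts was recomputed under 27 alternatives, 16 of which left out 1 array, and 56 kept their side of the threshold in all of them; no called value changed sign. Akr1e1 ranged between -1.76 and -1.59 in AβPP antisense minus Control and between -1.92 and -1.74 in Random antisense minus Control. Without AβPP antisense 4, AβPP antisense minus Random antisense was -0.03 and -0.12 for the 2 Akr7a5 probe sets, against 0.21 and 0.16 with it, none called. The number of member probe sets called in AβPP antisense minus Control, 2, was 1 with array weights, with only the 8 arrays compared, with the replicate block and with the mean of a gene's probe sets, and 1 to 2 with 1 array left out, because Akr1b10 (1453173_at) lost its call. Its adjusted p in limma was 0.113, 0.486 and 0.0611 under the first 3 and 0.0807 for the gene mean. In AβPP antisense minus Random antisense the number was 1 in place of 0 with both Control 4 and AβPP antisense 4 left out, and 0 in the other 26 alternatives. Replicate numbers recur across groups but did not pair arrays: deviations of same-numbered arrays correlated at a median of 0.04, 8 of 24 pairs exceeded 0.1, and 5 of 16 arrays correlated best with their own number. The replicate block changed no other count of member calls. Over all probe sets, the number called ranged between 0 and 896 in AβPP antisense minus Random antisense (main value 20), 21 and 2616 in AβPP antisense minus Control (775), 28 and 719 in Random antisense minus Control (100), 5 and 1286 in AβPP antisense minus SAMP8 (69), 0 and 19 in Random antisense minus SAMP8 (0) and 23 and 295 in SAMP8 minus Control (86). Counting Random antisense 1 as untreated SAMP8 gave 0.07 for Akr1e1 in Random antisense minus SAMP8. The causes were not tested. Probe sets below the filter, including the only one of Akr1b8, have signals too low to compare.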
